A study of Mus musculus with 16 samples.

Results

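Hes1, Errfi1 and Tmcc3 were followed in tibialis anterior muscle of mice after a single injection of formoterol, a long-acting β-agonist. The 3 genes were chosen on these same arrays, for signals that were higher in formoterol than in saline mice at 1 h and no longer higher at 4 h, so their response to formoterol is given as a description and was not tested. They are 3 of the 2389 genes that could be named among the 7596 probes kept. Of the 46120 probes on the array, 4 were identified as probes of these 3 genes, of which 3 were kept. Only 2592 of the kept probes could be named, so further probes of these genes may be among the unnamed ones. Skeletal muscle RNA came from 16 male wild type C57BL/10 ScSn mice of 6 to 7 weeks, 1 mouse per array. Mice received 100 µg/kg formoterol or saline (the vehicle) by intraperitoneal injection, and the muscle was removed 1 h or 4 h later, giving 4 mice in each of the groups saline 1 h, formoterol 1 h, saline 4 h and formoterol 4 h. No untreated mice were among the 16 arrays, so every mouse carried the injection itself, and the agonist reached the whole animal and not the muscle alone.

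Hes1 encodes a basic helix-loop-helix repressor of transcription. It is best known as a target of Notch signaling, it works with co-repressors of the Groucho (TLE) family on sites that include the N-box, it represses its own gene, and it opposes the muscle differentiation factor MyoD in cultured myoblasts. Errfi1 (also Mig-6 or RALT) encodes a cytoplasmic adaptor that binds the kinase domain of the EGF receptor family and lowers its activity, and it is induced by mitogens, stress and glucocorticoids. Tmcc3 encodes a membrane protein of the endoplasmic reticulum with coiled-coil domains, placed with atlastins at junctions of the reticulum in human cells, and it is not known as a repressor. β-agonists act through Gs and adenylyl cyclase, and the resulting cAMP activates protein kinase A and the transcription factor CREB, which binds the cAMP response element (CRE).

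The promoters are shown because cAMP signaling is known to act on CREs. RefSeq windows (GRCm38.p6) covering the 250 bases before annotated transcription starts were listed for 2 of the 3 genes, Errfi1 (2 starts) and Tmcc3 (6 starts), and not for Hes1. Errfi1 lies at chr4:150853796-150868889, Tmcc3 at chr10:94311682-94590954 and Hes1 at chr16:30065357-30067796. The second Errfi1 window, at chr4:150854820-150855069 on the plus strand and inside the annotated span of the gene, holds a full CRE and a TATA box, printed here in capitals, and the CRE begins 51 bases and the TATA box 28 bases before the start.
Errfi1: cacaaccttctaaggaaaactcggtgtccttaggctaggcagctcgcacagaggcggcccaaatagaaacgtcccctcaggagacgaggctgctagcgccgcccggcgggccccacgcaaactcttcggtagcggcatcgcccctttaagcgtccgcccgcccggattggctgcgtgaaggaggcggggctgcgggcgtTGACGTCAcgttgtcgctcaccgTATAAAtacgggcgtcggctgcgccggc
Of the Tmcc3 windows, the most upstream (chr10:94311699-94311948, plus strand) holds a CRE half-site, in capitals in the 30 bases at chr10:94311898-94311927, which begins 39 bases before the start.
Tmcc3: ccgctccccgccCGTCActccctcgaacac

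Motifs were searched on both strands as exact letters, and a match is a description of these letters and not a measured site. The full CRE (TGACGTCA) was in 1.55% of the 32851 windows of the reference and in 1 of 2 Errfi1 and 0 of 6 Tmcc3 windows. The CRE half-site (TGACG, which the full CRE contains on both strands) was in 17.8% of windows, the same Errfi1 window and 1 of 6 Tmcc3 windows among them. By gene, 650 of the 1941 measured genes with a window held the half-site (33.5%). Among 24 other named genes called higher at 1 h that had a window, 18 held it (75%), a description of genes called on the contrast that also served to choose the members. The full CRE was in 2 of these 24 genes (8.33%) and in 3.5% of the measured genes. The N-box (CACNAG), a site of HES proteins, was in 36.7% of windows, in neither Errfi1 window and in 2 Tmcc3 windows that overlap each other. The related site CACGCG was in 7.62% of windows and in 1 Tmcc3 window. The TATA box was searched as TATAAA, which was in 12.4% of windows, and besides the Errfi1 window it was in 1 Tmcc3 window, where it begins 173 bases before the start. Among the same 24 genes called higher at 1 h, the N-box was in 25% (38.6% of the measured genes). CACGCG was in 8.33% of the 24 (16.9% of the measured genes) and TATAAA in 16.7% (8.76%). No difference in these shares was tested.

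Signals are average bead intensities in arbitrary units, scaled so that every array has the same median over the 7596 kept probes. A probe was kept when its detection score, BeadStudio's measure of how far a probe stands above the negative controls, was 1 on at least 4 of the 16 arrays. The array medians before scaling were 392.7 to 746.1, or 2.33 to 3.74 times the background. Differences are log2 values from limma with standard errors (SE), and calls are made where the p adjusted over the 7596 probes (Benjamini-Hochberg) is under 0.05. The SE and p-values rest on the spread between mice within groups of 4. For each probe, limma estimates that spread over all 4 groups together and moderates it by the spread of other probes. Of the marker genes of skeletal muscle, 2 of 12 carried a kept and named probe. Actn3, the α-actinin of fast fibers, read 19150 to 25419 in all 16 mice, and Myh1, a fast myosin heavy chain, read 1138.5 to 2190.3. Actn3 differed between formoterol and saline mice by log2 -0.045 at 1 h and 0.077 at 4 h, not called. Myh1 differed by log2 -0.36 at 1 h and -0.27 at 4 h (SE 0.11 each, limma adjusted p = 0.117 and 0.115). Its 4 h ranges did not overlap (1758.9 to 1846.7 in saline and 1437.1 to 1551.0 in formoterol mice), an order held by 8.85% of all probes. No satellite cell or Schwann cell marker was kept. Because whole muscle was used, more cells expressing a gene and more RNA per cell cannot be told apart.

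Hes1 had the largest difference of the 3 genes at 1 h. In saline mice its signal was 339, 355, 436 and 434 at 1 h. In formoterol mice at 1 h it was 1242, 1702, 1626 and 1092. All 4 formoterol mice lay above all 4 saline mice, and the lowest of them read more than the highest saline mouse by a wide gap. At 4 h the signal was 443, 364, 354 and 403 in saline mice and 342, 437, 403 and 407 in formoterol mice, and the groups overlapped over nearly their whole range. The group means were 390.9 ± 50.9 and 1415.5 ± 295.0 at 1 h, and 391.3 ± 40.6 and 397.1 ± 40.1 at 4 h (saline and formoterol, SD, n = 4 each). The difference was log2 1.84 (SE 0.13, 3.58-fold) at 1 h and 0.02 (SE 0.13) at 4 h. Ranked over the 7596 probes, the 1 h difference was the 6th highest.

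In saline mice and at 4 h, Hes1 sat low on the array scale. The detection score was 1 on 15 of 16 arrays and 0.999 on the remaining saline 1 h array, so the saline level was measured, but at a signal where added background shrinks a fold difference. With background correction (normexp) and quantile normalization the 1 h difference was log2 2.19. The probe identity of Hes1 is also less direct than that of the other genes, because its ID holds no gene number and it was taken as the probe whose fold changes match those printed for Hes1 by the study.

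Errfi1 showed the same order of groups at a higher signal. Saline mice read 654, 749, 694 and 801 at 1 h, and formoterol mice read 1822, 1641, 2125 and 1788. The 2 groups did not overlap, and the spread among the formoterol mice was smaller than that of Hes1 on the log2 scale (SD 0.16 against 0.31). At 4 h the saline mice read 674, 864, 924 and 790 and the formoterol mice 726, 758, 1090.3 and 1064. Formoterol mice 1 and 2 lay within the saline range and formoterol mice 3 and 4 above it. The difference was log2 1.35 (SE 0.13, 2.54-fold) at 1 h and 0.15 (SE 0.13) at 4 h. It ranked 20th from the highest at 1 h.

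Tmcc3 differed less at 1 h and lay below saline at 4 h. Its kept probe read 1114, 1302, 888 and 1102 in saline mice and 2046, 1733, 2048 and 1431 in formoterol mice at 1 h. At 4 h it read 1129.8, 1369, 1300.5 and 1143 in saline mice and 1069, 883, 1098 and 802 in formoterol mice. The groups did not overlap at either time, with formoterol above saline at 1 h and below it at 4 h. The gap at 4 h was narrow, since the highest formoterol mouse and the lowest saline mouse differed by less than the SD of either group. The difference was log2 0.72 (SE 0.13, 1.64-fold) at 1 h and -0.37 (SE 0.13) at 4 h.

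**Figure D1:**
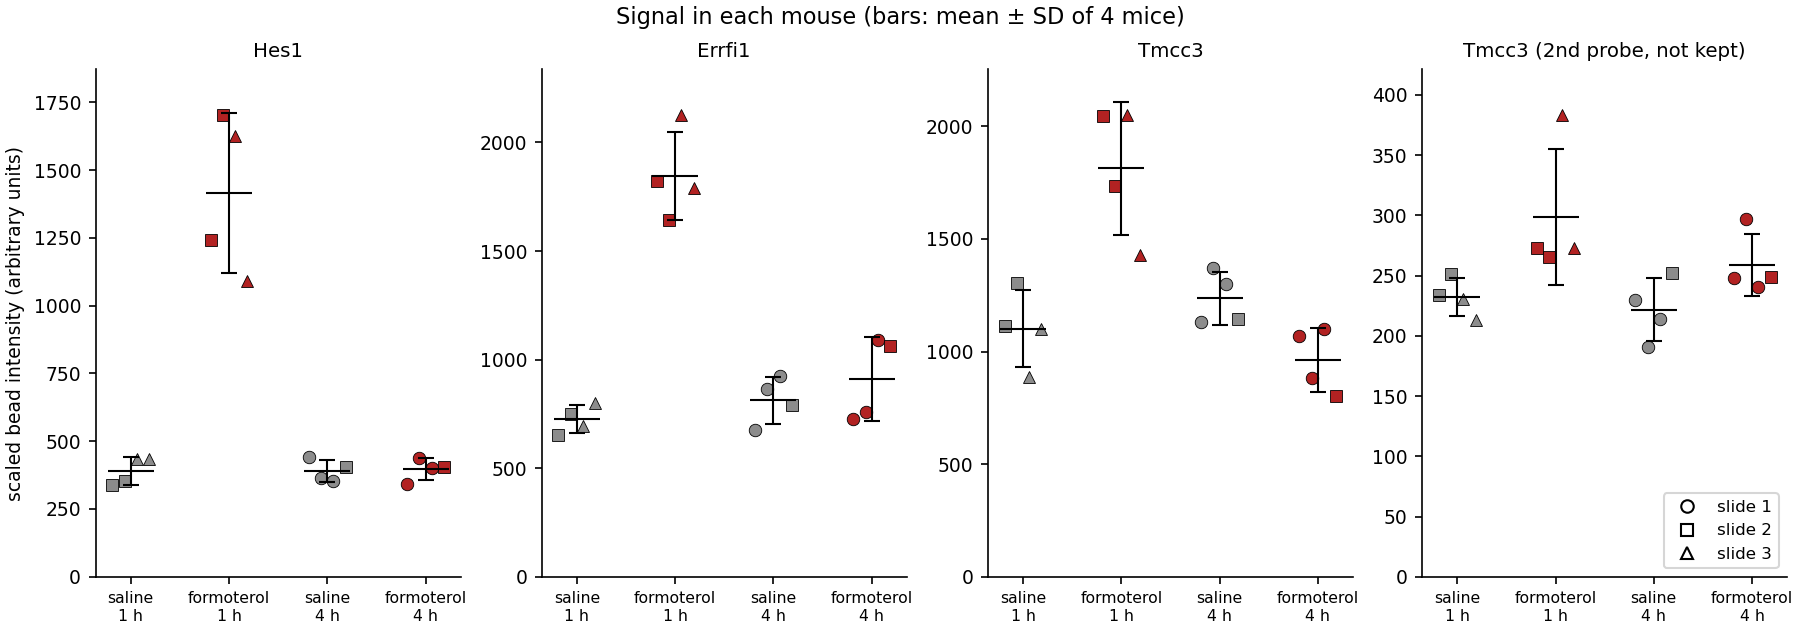
Scaled bead intensity (arbitrary units, linear axis from 0) of each mouse for the 3 kept probes and the 2nd Tmcc3 probe, by group, with bars for the mean ± SD of 4 mice and symbols for the slide an array lay on. Formoterol mice at 1 h read 1092 to 1702 for Hes1 against 339 to 436 in saline mice, and at 4 h the groups overlap for Hes1 and Errfi1.

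The second Tmcc3 probe was too dim to be kept, with a detection score of 1 on 1 array only, a formoterol mouse at 1 h. Its scaled signal was 213 to 251 in saline mice and 265 to 383 in formoterol mice at 1 h, and 191.0 to 252 and 241 to 297 at 4 h. In both saline groups it was not well above background on any array, so no fold is given. At 1 h its formoterol mice lay above its saline mice, as with the kept probe. At 4 h the groups overlapped and the formoterol mean was the higher (259 against 222), whereas the kept probe was lower in formoterol mice.

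The response at 4 h minus that at 1 h was log2 -1.82 for Hes1 (SE 0.19), -1.20 for Errfi1 (SE 0.19) and -1.08 for Tmcc3 (SE 0.19). These were the 3rd, 10th and 16th lowest values of 7596. Between the formoterol groups alone, the 4 h signal was lower than the 1 h signal by log2 -1.82 for Hes1, -1.04 for Errfi1 and -0.91 for Tmcc3. The comparisons at 1 h and at 4 h used different mice, so no mouse was followed over time.

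For reference, 211 of the 7596 probes were called at 1 h (2.78%), 142 of them higher (1.87%), 1206 were called at 4 h (15.9%), and the change between times was called for 267 (3.52%), 92 of them lower (1.21%). A call higher at 1 h together with a lower change between times was made for 28 probes (0.369%). The 3 kept probes are among these 28, which restates how they were chosen. All 4 formoterol mice lay above all 4 saline mice at 1 h for 333 probes (4.38%), the 3 kept probes included. All 4 lay below at 4 h for 672 probes (8.85%), Tmcc3 included. The median difference over all kept probes was 0.00 at 1 h and 0.02 at 4 h.

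**Figure D2:**
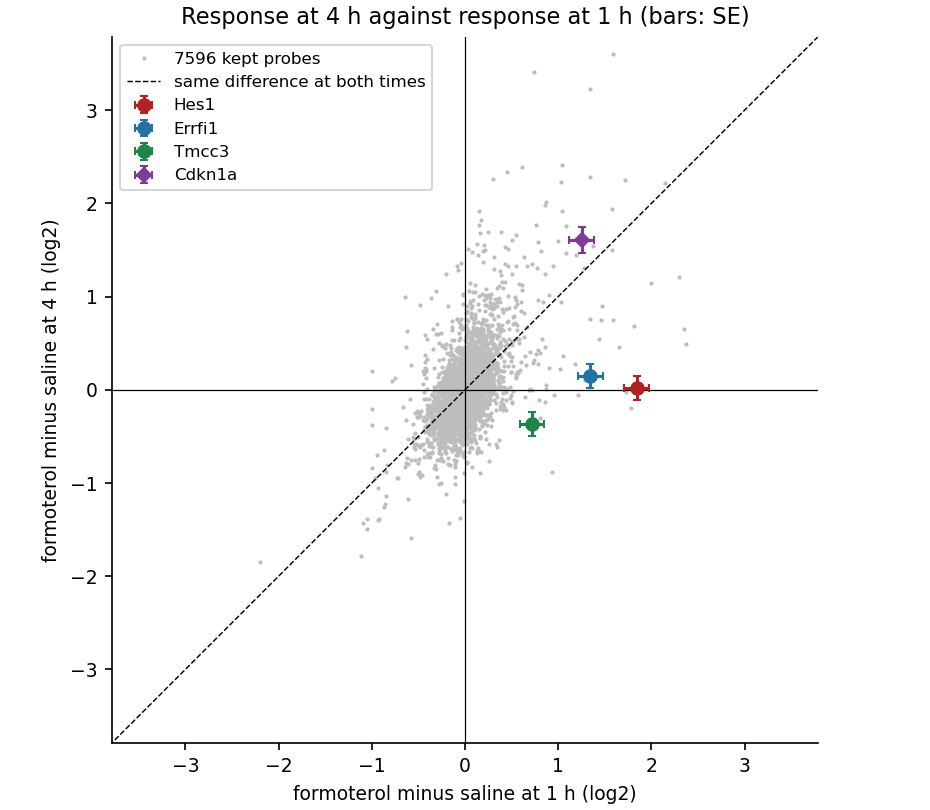
Log2 difference between formoterol and saline mice at 4 h (vertical) against 1 h (horizontal) for the 7596 kept probes (grey), with Hes1, Errfi1, Tmcc3 and Cdkn1a and their SE in colour, and a dashed line where both differences are equal. Hes1 (1.84 and 0.02) and Errfi1 (1.35 and 0.15) lie on the right near the horizontal axis, Tmcc3 (0.72 and -0.37) lies under it, and Cdkn1a lies high at both times, its 4 h position being set against saline arrays that did not detect it (at least 2.77-fold).

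The saline groups compare control mice alone at 2 times, but these mice were also the controls of the contrasts the genes were chosen on. A low saline level at 1 h and a high one at 4 h each favor the choice. The differences between saline groups may therefore be shifted upward, and their intervals and p-values do not allow for this. Saline mice at 4 h differed from saline mice at 1 h by log2 0.00 for Hes1 (95% interval -0.27 to 0.28, limma adjusted p = 0.992), 0.16 for Errfi1 (-0.12 to 0.44, adjusted p = 0.591) and 0.17 for Tmcc3 (-0.10 to 0.45, adjusted p = 0.565). By limma 0 of the 3 were called, 0 had an unadjusted p under 0.05 and 0 were called by the methods' t-test. Over all probes limma called 11 of 7596 (0.145%) and the methods' t-test called 1, so counts of 0 among 3 probes say little. The upper ends for Errfi1 and Tmcc3 are larger than the size of the Tmcc3 difference at 4 h, and the upper end for Hes1 is smaller. The SE was 0.13 for each gene, so the intervals are alike in width. For Tmcc3 the saline difference turned to -0.076 on slide 2 alone and to -0.11 with slide as a block, not called in either.

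The 16 arrays lay on 3 slides. Arrays of the 1 h groups were on slides 2 and 3, and arrays of the 4 h groups were on slides 1 and 2, with formoterol and saline balanced on each. At 1 h the Hes1 difference was log2 2.07 on slide 2 and 1.62 on slide 3, each from 2 mice against 2. Errfi1 gave 1.305 and 1.39, and Tmcc3 gave 0.64 and 0.79. At 4 h, slide 1 (3 mice against 3) gave 0.02 for Hes1, 0.05 for Errfi1 and -0.32 for Tmcc3. Slide 2 held 1 mouse of each 4 h group, and there the differences were 0.01, 0.43 and -0.51. Leaving out each array in turn gave 1.75 to 1.96 for Hes1, 1.28 to 1.40 for Errfi1 and 0.62 to 0.83 for Tmcc3 at 1 h, and -0.43 to -0.28 for Tmcc3 at 4 h. At 4 h the range was 0.051 to 0.247 for Errfi1, lowest without formoterol 4 h mouse 3 (then 0.062 without mouse 4 and 0.083 without saline 4 h mouse 1) and highest without formoterol 4 h mouse 1 (then 0.225 without mouse 2). For Hes1 it was -0.027 to 0.091, and the sign at 4 h turned without formoterol 4 h mouse 2 (-0.027), saline 4 h mouse 2 (-0.012) or saline 4 h mouse 3 (-0.025) and without the 3 arrays of extreme median signal (-0.097).

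**Figure D3:**
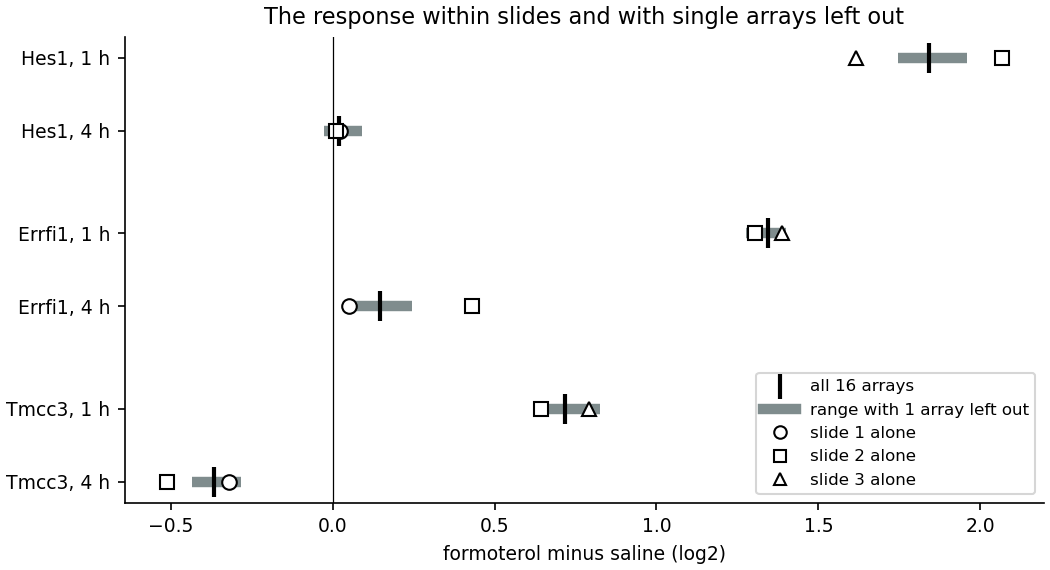
Log2 difference between formoterol and saline mice for Hes1, Errfi1 and Tmcc3 at 1 h and 4 h over all 16 arrays (vertical tick), with the range when 1 array is left out (grey bar) and the value within each slide (open symbols). At 1 h every value lies above 0, from 0.62 for Tmcc3 to 2.07 for Hes1, and at 4 h every Tmcc3 value lies below 0.

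Connective tissue, blood and endothelial markers also differed between the groups. Of 6 fibroblast markers 4 were measured, and 2 were lower in formoterol mice at 1 h. These were the collagen gene Col1a1 (log2 -0.87, SE 0.17, adjusted p = 0.00758) and Dcn, which encodes the proteoglycan decorin (log2 -0.26, SE 0.06, adjusted p = 0.0305). The summed signal of the 4 was 20601 to 25212 in saline and 14192 to 18200 in formoterol mice at 1 h, and 21539 to 31779 and 17049 to 19266 at 4 h, where Col1a1, Col1a2 and Col3a1 were lower. Dcn was not called at 4 h, at log2 0.06 by its brighter probe (limma adjusted p = 0.525) and -0.10 by a dimmer one (0.45). The blood markers, 2 of 4 measured, summed to 13920.3 to 38311 in saline and 22189 to 39917 in formoterol mice at 1 h, and to 5878 to 19622 and 24622 to 42282 at 4 h. Of 8 endothelial markers 2 were measured, and their sum was 920.4 to 1141.5 in saline and 891 to 1063 in formoterol mice at 1 h and 841 to 1140.0 and 1172.5 to 1279.9 at 4 h, where Eng, which encodes endoglin, was called higher (log2 0.42, SE 0.12, adjusted p = 0.0223). The part of these shifts in the Hes1, Errfi1 and Tmcc3 signals was not tested.

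Around these genes, 7 lists were read, covering Notch, HES and Groucho, ErbB, feedback inhibitor, TMCC and reticulum, and myogenic genes. They hold 183 genes, of which 26 had a kept probe that could be named. At 1 h limma called 1 of the 26 higher and 0 lower (4 and 1 at an unadjusted p under 0.05, 0 by the methods' t-test). At 4 h, 4 were higher and 3 lower, and for the change between times 1 was lower. Against the shares over all probes (2.78%, 15.9% and 3.52%) these counts are a description of few genes.

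Little of the Notch pathway upstream of Hes1 was measured. Of 14 receptor and ligand genes only Notch4 had a kept and named probe, with log2 -0.15 (SE 0.13, adjusted p = 0.693) at 1 h and -0.01 (adjusted p = 0.977) at 4 h. Of 26 processing and nuclear genes 5 were measured, among them the sheddase Adam17 and the γ-secretase subunits Ncstn and Psenen. At 1 h limma called 0 of the 5 (0 at an unadjusted p under 0.05, 0 by the methods' t-test, median log2 0.02), and 2 were lower at 4 h. Maml2, a co-activator of the Notch transcription complex, read 380 to 417 in saline and 284 to 315 in formoterol mice at 4 h (log2 -0.40, SE 0.08, adjusted p = 0.00185), and since no formoterol 4 h array detected it the signal was at least 1.20-fold lower. Fbxw7, a ubiquitin ligase subunit that marks the Notch intracellular domain for degradation, read 478.5 to 548 and 399.8 to 458 (log2 -0.23, SE 0.07, adjusted p = 0.0335). The Fbxw7 call did not hold without formoterol 4 h mouse 1, 3 or 4 (adjusted p = 0.0501, 0.067 and 0.115) or without saline 4 h mouse 1 or 4 (0.0761 and 0.0669). It was also lost with the replicate block (0.0513), on slide 1 alone (0.259), by the methods' t-test (0.0943) and with no filter on dim probes (0.114). Without the 3 arrays of extreme median signal it was lost too (0.0769), and the range across alternatives was 0.0197 to 0.259.

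Of 18 HES, HEY and Groucho genes only the co-repressor Tle1 was measured, and it read 485 to 675 in saline and 495 to 640.1 in formoterol mice at 1 h (log2 0.00, SE 0.10, adjusted p = 0.997). The later signals were 492 to 575 and 437 to 472 at 4 h, ranges that do not overlap, and it was not called (log2 -0.21, adjusted p = 0.183). Of 35 ErbB genes, whose receptors Errfi1 acts on, 2 were measured and limma called 0 at 1 h (0 also at an unadjusted p under 0.05 and by the methods' t-test). Lrig1, a membrane protein that restrains ErbB receptors, was called at 4 h, at 728 to 794 in saline and 838 to 948 in formoterol mice (log2 0.25, SE 0.06, adjusted p = 0.0116). Its call did not hold on slide 1 alone (adjusted p = 0.146), by the methods' t-test (0.0579) or without the 3 arrays of extreme median signal (0.0735). The GTPase gene Hras was at log2 -0.10 at 1 h (adjusted p = 0.629) and was not called.

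Among 50 genes for inducible feedback inhibitors 8 were measured, and Cdkn1a was the gene called at 1 h. It encodes the cell cycle inhibitor p21. Its brighter probe read 278 to 349 in saline and 545 to 949 in formoterol mice at 1 h (log2 1.25, SE 0.14, adjusted p = 1.21e-05), and 233 to 290.4 against 722 to 962 at 4 h (adjusted p = 1.4e-07). No saline 4 h array detected it, so the 4 h signal was at least 2.77-fold higher, and a second probe was at least 2.44-fold higher there. The probe had a detection score of 1 on 1 of 4 saline arrays at 1 h too, so no size is given for its change between times. The 1 h call did not hold on slide 3 alone (adjusted p = 0.148) or by the methods' t-test as run here on floored log2 values (0.184), which is not the study's own computation, over a range of 9.34e-07 to 0.184 across alternatives. Its difference from Hes1, Errfi1 or Tmcc3 was not tested.

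Tob2, an anti-proliferative gene of the BTG/TOB family, was called at 4 h (log2 0.72, SE 0.19, adjusted p = 0.0156) and read 442.5 to 863 in saline and 868 to 1154 in formoterol mice. That call did not hold without formoterol 4 h mouse 3 (adjusted p = 0.0548), saline 4 h mouse 1 (0.0574) or saline 4 h mouse 2 (0.0556). It was also lost by the methods' t-test (0.198) and with no filter on dim probes (0.285). Without the 3 arrays of extreme median signal the Tob2 difference was 0.43 (adjusted p = 0.319). Dusp8, a phosphatase of MAP kinases, had a mean above saline at 1 h (log2 0.51, SE 0.17) and below it at 4 h (-0.14, SE 0.17). Its ranges overlapped at 1 h (374 to 687.5 in saline and 658 to 775 in formoterol mice). It was not called at either time (adjusted p = 0.157 and 0.609) or for the change between them (0.215). The other 5 (Dusp16, Socs2, Cish, Zfp36l1 and Btg1) lay between 0.02 and 0.14 at 1 h and between -0.51 and 0.93 at 4 h, none called.

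Tmcc3 has 2 relatives among the measured genes. Tmcc1 read 404 to 450.2 in saline and 442 to 521 in formoterol mice at 1 h (log2 0.13, SE 0.07, adjusted p = 0.449). The later signals were 413 to 458 and 334 to 384 at 4 h (log2 -0.29, SE 0.07, adjusted p = 0.00888), and the change between times was log2 -0.41 (SE 0.10, adjusted p = 0.0238). The second Tmcc1 probe was not well above background on any formoterol array and had a detection score of 1 on 2 of 4 saline arrays at each time, so it gives no reading of the change. The change between times lost its call without formoterol 1 h mouse 4 (adjusted p = 0.05), formoterol 4 h mouse 1 (0.0514), saline 1 h mouse 2 (0.057) or saline 4 h mouse 3 (0.052). It also lost it with no filter on dim probes (0.101). Without the 3 arrays of extreme median signal the call at 4 h and that of the change were both lost (0.0911 and 0.121). Tmcc2 was at log2 0.17 at 1 h and 0.11 at 4 h and was not called.

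Of the other 5 measured genes on that list, the reticulum shaping genes Rtn2, Rtn3, Rtn4 and Atl2 and the 14-3-3 gene Ywhaq, none was called by its brighter probe. For Atl2, an atlastin, a dimmer probe was called at 4 h (log2 0.35, SE 0.07, adjusted p = 0.00304) and the brighter one was not (0.06, SE 0.19, adjusted p = 0.847). Of 17 myogenic genes 2 were measured. Id3, an inhibitor of basic helix-loop-helix factors, was called at 4 h, at 379.7 to 486 in saline and 535 to 646 in formoterol mice (log2 0.40, SE 0.10, adjusted p = 0.0103), and lost that call with no filter on dim probes (0.133), by the methods' t-test (0.0808) and without the 3 arrays of extreme median signal (0.0606). Mef2c, a muscle transcription factor, was at log2 0.06 at 1 h and -0.18 at 4 h and was not called.

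**Figure D4:**
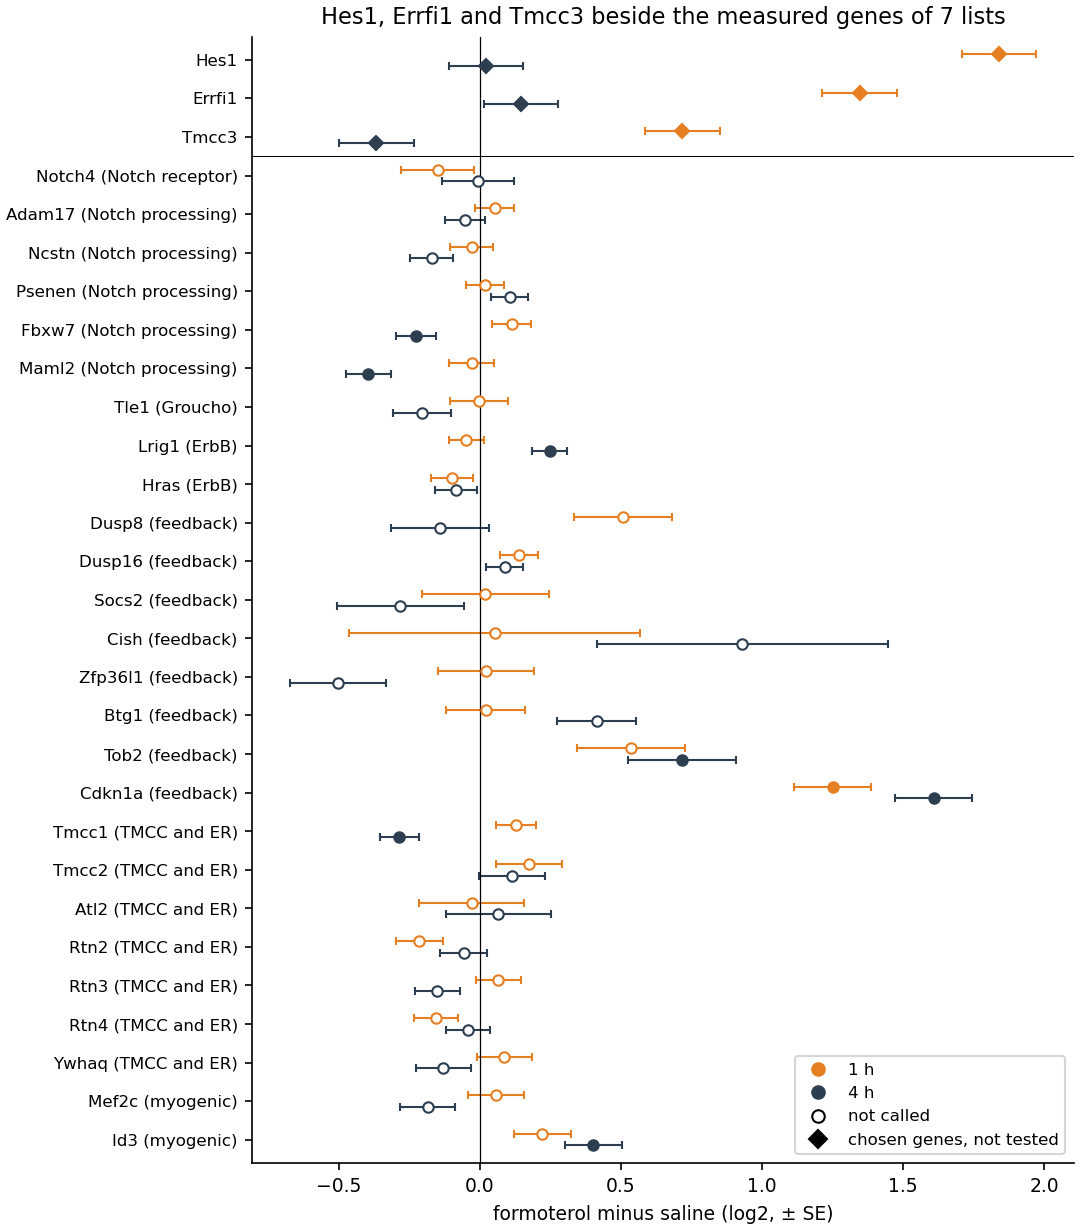
Log2 difference between formoterol and saline mice (± SE) at 1 h (orange) and 4 h (dark blue) for Hes1, Errfi1 and Tmcc3 (diamonds, chosen on these values and not tested) and for the 26 measured genes of the lists (circles, filled where called). At 1 h Cdkn1a (1.25) is the filled circle, and at 4 h Cdkn1a, Tob2, Id3, Lrig1, Fbxw7, Tmcc1 and Maml2 are filled, with Cdkn1a (saline) and Maml2 (formoterol) detected on no 4 h array of 1 group.

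Over the 16 arrays, each chosen probe was set against the other 2591 named and kept probes by Pearson's r on log2 signal. Such an r can reflect differences between the groups, such as the 4 formoterol 1 h mice against the other 12, since all arrays share the one design. How far it does was not computed, and r is given as a description. For Hes1 the 5 most alike were Junb (r = 0.94), Errfi1 (0.91), Fosl2 (0.89), Klf2 (0.84) and Klf4 (0.84). For Errfi1 they were Junb (0.93), Klf2 (0.91), Hes1 (0.91), Fosl2 (0.87) and Klf4 (0.84). Junb and Fosl2 encode AP-1 subunits, and Klf2 and Klf4 encode Krüppel-like factors. For Tmcc3 they were Arrdc3 (0.79), Hes1 (0.77), Errfi1 (0.76), Trp53i11 (0.74) and Junb (0.73). Arrdc3 encodes an arrestin-like protein. By Spearman's rho, 0 of the 5 genes remained among the 5 most alike for Hes1, and 1 each for Errfi1 and Tmcc3, so the ranking depends on the measure.

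Of these genes, Junb, Fosl2 and Klf4 still read above saline in every formoterol mouse at 4 h. The share of all probes with that order at 4 h was not counted. At 1 h it was 4.38%, and 15.9% of all probes were called at 4 h in either direction. Junb read 173 to 284 in saline and 355 to 450.2 in formoterol mice at 4 h, after 242 to 301 and 906 to 1840 at 1 h. No saline array detected Junb, so it was at least 4.16-fold higher at 1 h and at least 1.39-fold higher at 4 h. Fosl2 read 853 to 967 in formoterol mice at 1 h and 432 to 579 at 4 h, above saline mice at 289 to 312 and 256 to 329. No saline 1 h array detected Fosl2, so it was at least 2.72-fold higher at 1 h, and only 1 saline 4 h array had a detection score of 1. Klf4 was at least 1.43-fold higher at 1 h and at least 1.19-fold higher at 4 h, with formoterol mice at 312 to 404 at 4 h. Junb, Fosl2 and Klf4 did not overlap their saline groups at either time, and their difference from the chosen genes was not tested.

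Klf2 came nearest to Hes1 and Errfi1 at 4 h. It read 414 to 580.3 in saline and 1046 to 1392 in formoterol mice at 1 h (log2 1.28), and 459 to 658 and 585 to 709 at 4 h, where the groups overlapped (log2 0.11). Arrdc3, the probe most like Tmcc3, read 647 to 1247 in saline and 662 to 1727 in formoterol mice at 1 h, ranges that overlap, and 684 to 912 and 482 to 781 at 4 h. Trp53i11 read 311 to 392 and 365 to 589.9 at 1 h, and 319 to 442 and 309 to 362 at 4 h. For both, the means lay above saline at 1 h and below it at 4 h, an order that their choice by likeness to Tmcc3 on these arrays favors. Neither was called at 1 h, at 4 h or for the change between times. The limma adjusted p was 0.727, 0.377 and 0.511 for Arrdc3 and 0.102, 0.27 and 0.0649 for Trp53i11. The Trp53i11 probe had a detection score of 1 on 3 of 4 formoterol arrays at 1 h and 2 of 4 at 4 h.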

How the data were processed

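Tibialis anterior RNA of 16 mice was hybridised to Illumina Sentrix Mouse-6 arrays, 4 mice per group. Per the labels the scans were read with BeadStudio (version 1.5.1.3), and the authors deposited an unnormalized average bead intensity per probe and a detection score from 0 to 1. The deposited ratio is each intensity over the median of its array, computed by the authors in GeneSpring over the 7596 of 46120 probes with a score of 1 on at least 4 arrays, and recomputed it differed by a relative 0.00156 at most. Here intensities of these 7596 probes were scaled to a common median of 523.5, raised to a floor of 257.5 (percentile 1, 1215 values) and logged (base 2, log2). Using limma (3.58.1, R 4.3.3), group means were fitted to all arrays together (12 residual and 5.97 prior degrees of freedom), a fit that was tested on simulated data. The study's methods used Welch's test with unequal variances at each time, called the methods' t-test here and run on the floored log2 values, so its calls are not the study's own. Summaries were made in Python 3.11.15.

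The files give no gene names. Names were read from probe IDs through the RefSeq gene table: 2584 kept probes by a zero-padded gene number and 7 by an accession, which is an inference, and the Hes1 probe was given. In lists, the kept probe of highest mean signal stands for a gene. Where no array of a group had a score of 1, a fold is a lower bound, the brighter group's mean against the dim group's mean of each array's lowest signal at score 1. Members and lists were chosen with earlier results of these data known. Named are the members, up to 6 called genes per list with others as counts or values, and the 5 named probes most like each member. List genes given as not called, Dusp8 and the dimmer Atl2 probe among them, were chosen after their values were seen. In the ErbB list, 1 gene is not reported here and was left out of the counts. Alternatives changed the normalization, filter, floor, test, slide, replicate block or arrays used.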

Additional observations from a re-analysis of the deposited data

Results flagged for a closer look

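Each group of 4 mice was searched for a mouse far from the others, for the 3 kept probes and the dim Tmcc3 probe, 16 groups in all. Chance alone marks about 1 in 20 such groups. No group of the kept probes was marked. For the dim second Tmcc3 probe, 1 formoterol mouse at 1 h (mouse 3, at 383 against 265 to 273 in the other 3) stood apart, with a gap of 0.923 of the range on the log2 scale. At 4 h, formoterol mouse 2 of that probe (297 against 241 to 249) stood apart with a gap of 0.85. The first was the array on which the probe was detected, and the second was not detected.

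The response of Tmcc1 differed between 4 h and 1 h by log2 -0.41 (limma adjusted p = 0.0238), from 0.13 at 1 h to -0.29 at 4 h. A second probe of the gene was not well above background on any formoterol array and gives no reading of this.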

How the results depend on the processing

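For Hes1, Errfi1 and Tmcc3 the differences at 1 h and between times kept their direction under every alternative that gave a value, while the Hes1 difference at 4 h, near 0, ranged from -0.097 to 0.091. Moves beyond 1 SD of the mice were seen for Hes1 with normexp (2.19 at 1 h, -2.17 between times), slide 2 alone (2.07 and -2.06) and slide 3 alone (1.62), and for Errfi1 on slide 2 alone (0.43 at 4 h, -0.88 between times, 1 mouse per 4 h group, so a value without a test). The saline difference of Hes1, near 0 and never called, ranged from -0.060 to 0.061 when 1 array was left out, with its sign turned without saline 1 h mouse 1 (-0.060) or 2 (-0.038) and without saline 4 h mouse 1 (-0.057) or 4 (-0.011). It was 0.217 on slide 2 alone and 0.10 with slide as a fixed block, and that of Errfi1, 0.161, became 0.337 with slide as a block, all uncalled. That of Tmcc3 turned to -0.076 on slide 2 alone and -0.11 with slide as a fixed block. The cause was not tested.

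Counts over all probes moved more. At 1 h the 211 calls became 73 with no filter on dim probes, 6 by the methods' t-test, 633 on slide 2 alone, 40 on slide 3 alone and 133 to 266 with 1 array left out (lowest without saline 1 h mouse 1, then formoterol 1 h mouse 1 at 135 and saline 1 h mouse 2 at 138). The 1206 at 4 h became 501 with no filter, 393 by the methods' t-test, 546 without the 3 arrays of extreme median signal (chosen after seeing the data) and 879 to 1777 with 1 array left out. The 267 for the change between times became 67, no test, 148 and 194 to 309 likewise. For saline at 4 h against 1 h the 11 calls became 0 with no filter, with normexp and with slide as a block, 4 with quantile normalization, 7 with the deposited ratios, 6 with an offset of 50, with trend and robust or without the 3 arrays, 1 by the methods' t-test, 18 on slide 2 alone and 0 to 79 with 1 array left out (79 without saline 4 h mouse 4, 0 without saline 1 h mouse 2 or 4 or saline 4 h mouse 3). The settings without a filter test every probe on the array, and slides alone use fewer mice.

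The deviations of mice of the same number from their group means had r of -0.28 to 0.30, over 0.1 in 9 of 24 pairs. Mice of unlike number were not compared, so these values cannot decide whether the numbers pair mice. With the replicate block, calls were 216, 1275 and 279 for 1 h, 4 h and the change, and 31 for saline at 4 h against 1 h. The members' differences stayed at 1.84, 1.35 and 0.72 at 1 h, and of the named list genes Fbxw7 lost its call (0.0513). Signal over background (2.33 to 3.74) limits the lowest readings, such as Hes1 in saline mice and the second Tmcc3 probe.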
